A study of Mus musculus with 6 samples.

Results

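Integrins are heterodimers of an alpha and a beta subunit that span the plasma membrane, bind the extracellular matrix outside the cell and connect to the actin or keratin cytoskeleton inside it. In the mammary gland, the basal cells rest on a basement membrane of laminin and collagen IV, and integrins of these cells anchor them there and pass on signals that mammary stem cells and milk-producing cells need. The genes described here encode 10 matrix-binding integrin subunits, which were the rows of the count table for *Itga1*, *Itga2*, *Itga3*, *Itga5*, *Itga6*, *Itgav*, *Itgb1*, *Itgb4*, *Itgb6* and *Itgb8*. They are 10 of 54418 gene identifiers in that table, and each was matched by its Ensembl identifier to a symbol of the GRCm38 mouse annotation. They were taken as receptors for laminin, collagen and RGD-containing ligands such as fibronectin. None was chosen for its difference between the genotypes, although earlier results of these data were known when they were chosen.

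RNA was sequenced from mammary epithelial cells that were sorted by FACS from 4-week-old female C57BL/6 mice, 3 of them *Glis2+/+* and 3 *Glis2-/-*, with 1 library per mouse. The *Glis2-/-* mice carried a germline knockout of *Glis2*, which encodes a zinc-finger transcriptional repressor, so that the knockout was not limited to the epithelium. The sources used here do not describe the allele further. The comparison asks how gene expression in mammary cells differs when *Glis2* is missing. The sort used a viability dye with antibodies against TER-119, CD31, CD45, CD24 and CD49f. CD49f is the protein that *Itga6* encodes, so one of the 10 integrins was itself stained for the sort, and the gate set on it is not given in the labels. Total estimated counts lay between 24996524 and 31393917 per library. The targeted gene had estimated counts of 671, 663 and 510 in the wild type and of 252, 509 and 510 in the knockout, so transcripts assigned to *Glis2* remained there. Levels below are given as CPM, counts scaled by the library total and its TMM factor, where a gene is compared between libraries. Where genes are compared with each other they are given as TPM, which is also scaled by transcript length. By CPM, *Glis2* was at 21.7, 23.2 and 19.6 in *Glis2+/+* and 10.1, 17.0 and 16.3 in *Glis2-/-* libraries. It was lower there without overlap, as were 5.5% of all genes, with a log2 fold change of -0.57 (SE 0.22, edgeR adjusted p = 0.906). By TPM its groups overlapped, with means of 3.03 and 2.89.

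None of the 10 integrins passed the thresholds of the comparison, an adjusted p no higher than 0.05 together with a log2 fold change of 0.58 or more in either direction. In edgeR's quasi-likelihood test this count was 0 of 10 integrins beside 0 of 21236 genes tested (0.0%), and in DESeq2 with apeglm shrinkage it was 0 of 10 beside 45 of 23738 genes (0.19%). An unadjusted p under 0.05 was obtained in edgeR for 0 of the 10 integrins and for 5.32% of all genes, 2.99% higher and 2.33% lower in *Glis2-/-* cells. All 10 passed the filter on low counts. The smallest adjusted p among them was 0.910 in edgeR, for *Itgb4*. By CPM, 6 of the 10 were higher and 4 lower in *Glis2-/-* cells with a median log2 fold change of 0.04, but by log2(TPM + 1) in limma all 10 were lower, with a median of -0.21. Over all genes tested, the median was 0.01 by CPM, where 51.6% of genes were higher, and -0.06 by log2(TPM + 1). Over all genes, the spread between mice of 1 genotype came to a biological coefficient of variation of 37.4%.

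The intervals were narrow for most of these genes. The 95% interval of the log2 fold change lay within 0.58 of 0 for 7 of the 10 integrins, against 29.4% of all genes, and within 1 of 0 for all 10, against 50.7% of all genes. The first share was similar in 2 of the lists described below, with 68.4% of focal adhesion genes and 71.4% of hemidesmosome and tetraspanin partners. The 3 whose interval reached past 0.58 were *Itga1*, *Itga5* and *Itgb6*. A change in the transcript level of a factor of 2 or more in either direction was therefore outside the interval for each of the 10 genes, and one of 0.58 or more on the log2 scale for 7 of them. The precision followed the depth only in part, since the counts per library were 307 to 682 for *Itgb6* but 1003 to 3010 for *Itga1*, which had the widest interval.

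**Figure D1:**
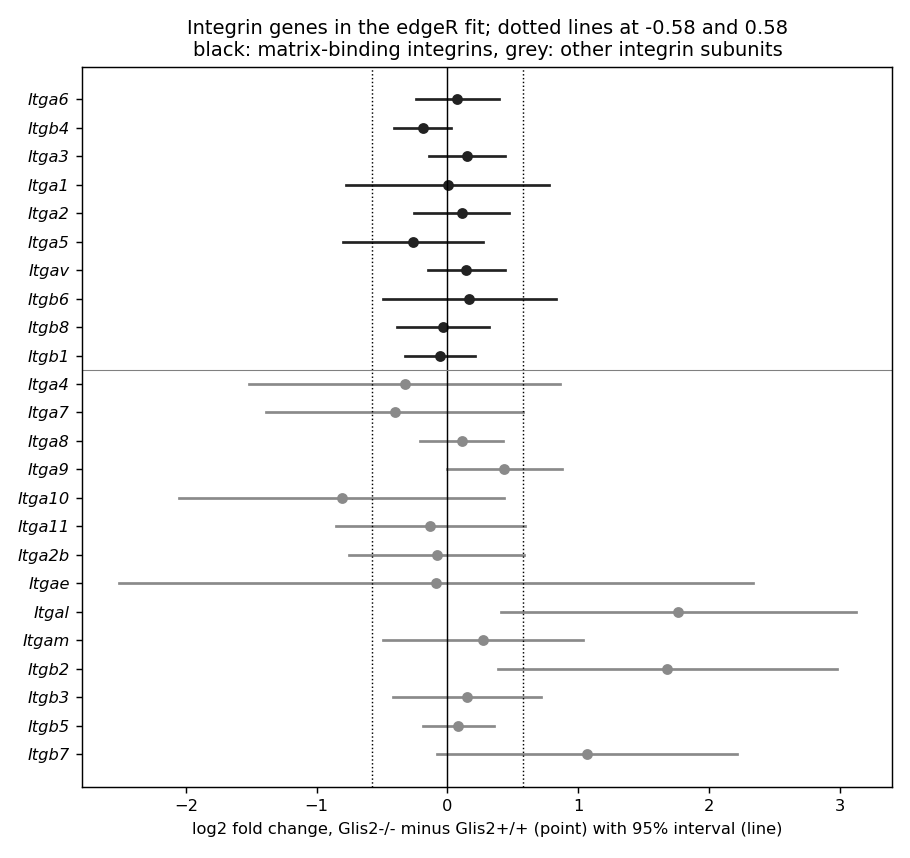
Log2 fold change of integrin genes, *Glis2-/-* minus *Glis2+/+*, from the edgeR fit (horizontal axis, points) with the 95% interval (lines), for the 10 matrix-binding integrins (black, above the grey line) and 14 other integrin subunits (grey, below it). Dotted lines stand at -0.58 and 0.58. Each black interval crosses 0, and 7 of the 10 stay between the dotted lines, whereas the intervals of *Itgal* and *Itgb2* lie above 0.

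The levels of the 10 genes relative to each other were similar in all libraries at the upper end of the scale. *Itga6* had the highest mean TPM with 45.2 ± 5.12 (SD, n = 6 libraries of both genotypes), followed by *Itgb1* with 37.3 ± 5.41, *Itga3* with 18.2 ± 3.04, *Itgav* with 14.7 ± 3.56 and *Itgb4* with 9.47 ± 2.24. *Itga6* made up 33.3% and *Itgb1* 27.5% of the summed TPM of the 10 genes, which lay between 107.7 and 161.3. Below them stood *Itga5* with 4.08 ± 1.25, *Itga2* with 2.09 ± 0.235, *Itga1* with 2.02 ± 0.793, *Itgb8* with 1.26 ± 0.170 and *Itgb6* with 1.184 ± 0.303. From *Itga6* down to *Itga2*, each gene was higher than the next in 6 of 6 libraries, although the ranges over libraries overlapped between *Itga6* and *Itgb1*, between *Itga3* and *Itgav* and between *Itgav* and *Itgb4*. Neighbours among the last 4 genes had no fixed order: *Itga2* was higher than *Itga1* in 3 of 6 libraries, *Itga1* higher than *Itgb8* in 4 of 6, and *Itgb8* higher than *Itgb6* in 4 of 6. A single small noncoding RNA gene, *Gm23935*, held between 83.0% and 85.7% of the TPM of each library, which left the rest to all other genes.

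**Figure D2:**
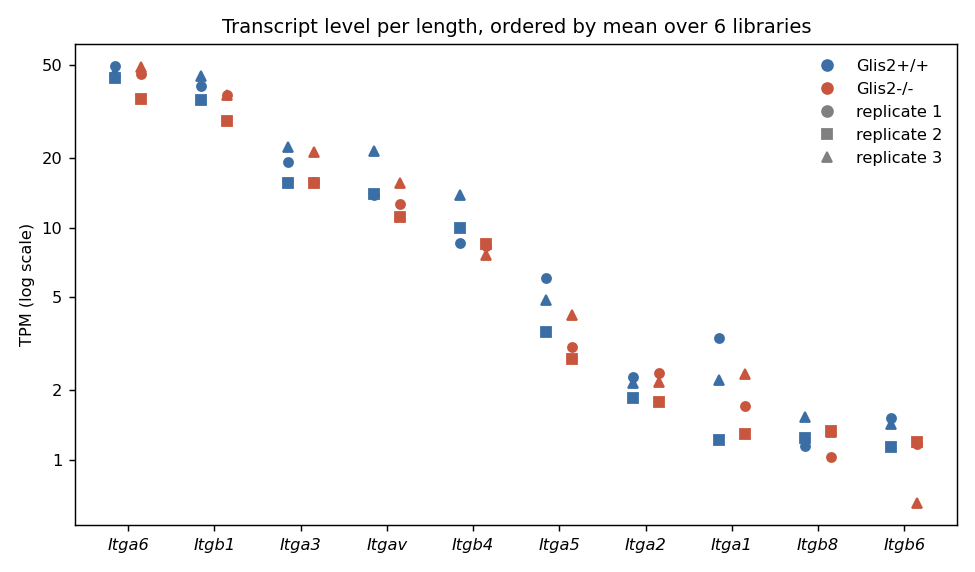
TPM of each integrin gene in each library on a log axis, ordered by the mean over 6 libraries, with *Glis2+/+* in blue and *Glis2-/-* in red and a symbol for each replicate number. The points fall from 35.6 to 49.7 TPM for *Itga6* to 0.651 to 1.52 TPM for *Itgb6*, and the points of neighbouring genes overlap among the 4 on the right.

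The laminin receptor subunits include the gene with the highest level. *Itga6* (ENSMUSG00000027111, chr2:71745616-71858416 in GRCm38, plus strand) encodes the alpha subunit that pairs with the product of *Itgb4* in hemidesmosomes, the junctions that tie keratin filaments to the basement membrane, and with that of *Itgb1* elsewhere. Its CPM was 741, 561 and 582 in *Glis2+/+* libraries and 632, 587 and 768 in *Glis2-/-* libraries. The highest library was *Glis2-/-* replicate 3, the lowest *Glis2+/+* replicate 2, and the groups overlapped. The means were 628 ± 98.3 and 662 ± 94.5 (SD, n = 3), with a log2 fold change of 0.08 (SE 0.14) and an edgeR adjusted p of 0.977. Since CD49f was stained for in the sort, an effect of the gate and the level of *Itga6* in the gland cannot be told apart.

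*Itgb4* (ENSMUSG00000020758, chr11:115974709-116008412, plus strand) encodes the partner of *Itga6* in hemidesmosomes, whose long cytoplasmic tail binds plectin. Its CPM was 198, 215 and 235 in *Glis2+/+* and 189.9, 189.8 and 188.8 in *Glis2-/-* libraries. It was the only one of the 10 genes whose groups did not overlap by CPM: all 3 *Glis2-/-* libraries lay below all 3 *Glis2+/+* libraries, and the same held by TPM, with 8.59, 9.92 and 13.8 against 8.35, 8.52 and 7.66. A CPM without overlap was found for 11.7% of all genes, and with *Glis2-/-* below *Glis2+/+* for 5.5%, so 1 in 10 integrins was near that background. The means were 216 ± 18.3 and 189.5 ± 0.604, with a log2 fold change of -0.19 (SE 0.09, 95% interval -0.41 to 0.03) and an edgeR adjusted p of 0.910. A two-sided exact permutation test over libraries gave p = 0.1, the smallest that 3 against 3 allows. Groups without overlap always give this value, so the test adds nothing to the lack of overlap. The SD of the *Glis2-/-* libraries was the smallest of the 10 genes, and *Itgb4* also had the narrowest range over all 6 libraries, with the highest value 1.24 times the lowest. Exons of *Itgb4* overlap those of *B230344G16Rik* on the opposite strand over 537 bases.

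*Itga3* (ENSMUSG00000001507, chr11:95044474-95076801, minus strand) encodes a further laminin receptor subunit that pairs with the product of *Itgb1*. Its CPM was 188, 149 and 181 in *Glis2+/+* and 179, 177 and 217 in *Glis2-/-* libraries. The groups overlapped, and the means of 173 ± 21.1 and 191 ± 22.2 differed by a log2 fold change of 0.15 (SE 0.13), with an edgeR adjusted p of 0.942. *Itgb1* (ENSMUSG00000025809, chr8:128685654-128733200, plus strand), whose product is the common beta subunit of the laminin, collagen and fibronectin receptors described here, had a CPM of 669.8, 538 and 637 in *Glis2+/+* and 585, 529 and 658 in *Glis2-/-* libraries. These values overlapped too, with means of 615 ± 68.8 and 591 ± 64.6, a log2 fold change of -0.06 (SE 0.12) and an edgeR adjusted p of 0.977.

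**Figure D3:**
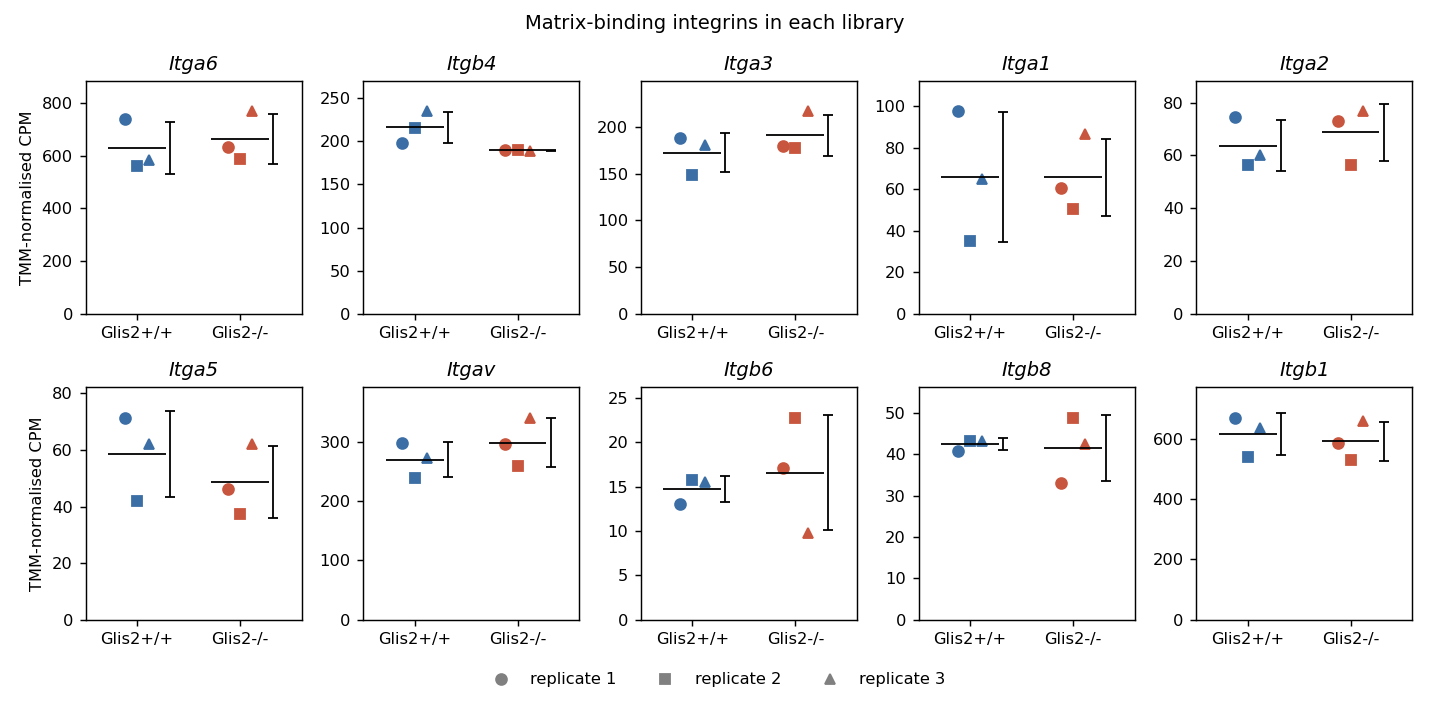
TMM-normalised CPM of the 10 matrix-binding integrins in each library (vertical axes, each from 0), with *Glis2+/+* in blue and *Glis2-/-* in red, a symbol for each replicate number, a horizontal line at the group mean and a bar of 1 SD to either side of it. The groups overlap in every panel except *Itgb4*, where the *Glis2-/-* libraries at 188.8 to 189.9 sit below the *Glis2+/+* libraries at 198 to 235.

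*Itga1* and *Itga2*, the collagen receptor subunits, are neighbours on chromosome 13 and differed in how much they varied. *Itga1* (ENSMUSG00000042284, chr13:114953096-115101964, minus strand), whose product binds collagen IV and other collagens and is known from stromal and vascular cells, had a CPM of 97.5, 35.1 and 64.7 in *Glis2+/+* and 60.4, 50.6 and 86.5 in *Glis2-/-* libraries. The *Glis2+/+* libraries alone held both its lowest and its highest value, and the highest was 2.78 times the lowest, the widest range of the 10 genes. Its group means were equal to 3 digits, 65.8 ± 31.2 and 65.8 ± 18.6, with a 95% interval of the log2 fold change from -0.78 to 0.78 and an edgeR adjusted p of 1.00. *Itga2* (ENSMUSG00000015533, chr13:114833081-114932100, minus strand), which encodes an epithelial and platelet receptor for collagen I, had a CPM of 74.7, 56.2 and 60.3 in *Glis2+/+* and 73.2, 56.4 and 76.7 in *Glis2-/-* libraries. Its range was 1.37 times, the groups overlapped, and the log2 fold change was 0.11 (SE 0.16, edgeR adjusted p = 0.973). *Itga1* shares 685 exonic bases on the same strand with *Gm49395*, which was counted separately at 0 to 36 counts per library, so how reads of the overlap were divided is uncertain.

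Among the RGD receptors, *Itga5* (ENSMUSG00000000555, chr15:103344286-103366763, minus strand) encodes the alpha subunit of the main fibronectin receptor. Its CPM was 71.5, 41.9 and 62.2 in *Glis2+/+* and 46.4, 37.5 and 62.3 in *Glis2-/-* libraries. The second replicate of each genotype was low, and the means of 58.6 ± 15.1 and 48.7 ± 12.6 differed by a log2 fold change of -0.27 (SE 0.23, 95% interval -0.80 to 0.27, edgeR adjusted p = 0.943). *Itgav* (ENSMUSG00000027087, chr2:83724397-83806916, plus strand) encodes the alpha subunit that the products of *Itgb6* and *Itgb8* pair with. Its CPM was 298, 239 and 273 in *Glis2+/+* and 296, 259 and 341 in *Glis2-/-* libraries, with overlap and a log2 fold change of 0.15 (SE 0.13, edgeR adjusted p = 0.943), whereas by log2(TPM + 1) in limma the difference was -0.29. Exons of *Itgav* overlap those of *Gm13684* on the opposite strand over 634 bases, with 6 to 26 counts per library for that gene. The library kit keeps strand, but the strand setting used to estimate the counts is not given in the sources used here.

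*Itgb6* and *Itgb8* encode the beta subunits with which the *Itgav* product releases active TGF-beta from its latent complex, and both were at the low end of the scale. *Itgb6* (ENSMUSG00000026971, chr2:60598292-60722643, minus strand) had a CPM of 13.03, 15.7 and 15.5 in *Glis2+/+* and 17.1, 22.8 and 9.81 in *Glis2-/-* libraries. The *Glis2-/-* libraries held both the highest and the lowest value, a range of 2.32 times, and the log2 fold change was 0.17 (SE 0.29, 95% interval -0.50 to 0.83, edgeR adjusted p = 0.977). By log2(TPM + 1) in limma its direction was the opposite, with a difference of -0.25. *Itgb8* (ENSMUSG00000025321, chr12:119158022-119238802, minus strand) had a CPM of 40.8, 43.2 and 43.3 in *Glis2+/+* and 33.2, 48.9 and 42.4 in *Glis2-/-* libraries, with a log2 fold change of -0.03 (SE 0.15, edgeR adjusted p = 0.992). The *Glis2+/+* values of *Itgb8* lay close together, between its *Glis2-/-* values.

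Ratios between subunits within a library do not depend on scaling between libraries, and 5 such ratios of TPM were compared. *Itga6* to *Itgb4* was 5.79, 4.45 and 3.40 in *Glis2+/+* and 5.49, 4.18 and 6.41 in *Glis2-/-* libraries, a log2 difference of 0.25 (exact permutation test, two-sided, p = 0.5, adjusted p = 0.833 over 5 ratios). The 6 alpha subunits summed were between 2.19 and 2.54 times *Itgb1*, with a log2 difference of 0.06 (exact permutation p = 0.5, adjusted p = 0.833). This was the ratio with the narrowest range of the 5. *Itgb6* to *Itgb8* was 1.32, 0.917 and 0.937 in *Glis2+/+* and 1.14, 0.897 and 0.496 in *Glis2-/-* libraries, a log2 difference of -0.39 (exact permutation p = 0.4, adjusted p = 0.833). *Itga3* to *Itga6* lay between 0.342 and 0.474, and *Itga2* to *Itga1* between 0.683 and 1.52, with exact permutation p-values of 1.0 and 0.7 (adjusted p = 1.0 and 0.875). In all 5 ratios of TPM the groups overlapped. By CPM, the summed alpha subunits were 2.196, 2.01 and 1.92 times *Itgb1* in *Glis2+/+* and 2.198, 2.21 and 2.36 times in *Glis2-/-* libraries, without overlap, a log2 difference of 0.14 (exact permutation p = 0.1, the smallest possible, adjusted p = 0.5 over 5 ratios). The other 4 ratios overlapped by CPM too.

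The libraries differed in the summed level of markers of other cell types. By CPM, 6 of the 10 integrins were high and low in the same libraries as the endothelial markers. Summed CPM of 6 endothelial markers was 649, 124 and 466 in *Glis2+/+* and 415, 185 and 665 in *Glis2-/-* libraries, a range of 5.35 times, and that of 6 fibroblast markers was 7357, 2293 and 7727 against 4256, 2585 and 5885. No marker of these lists was at 0 in any library. *Pecam1*, which encodes the CD31 that was stained for in the sort, was present at 44.6 to 198 CPM. The endothelial sum was lowest in replicate 2 of both genotypes and highest in *Glis2+/+* replicate 1 and *Glis2-/-* replicate 3. The lowest pair and the highest pair of libraries were the same for 6 of the 10 integrins, against 3.42% of all genes tested. They were *Itga1*, *Itga2*, *Itga3*, *Itga5*, *Itgav* and *Itgb1*, and this was noticed after the values were seen. By TPM, *Itga1* and *Itga6* had these lowest and highest pairs, whereas *Itga2*, *Itga3*, *Itga5*, *Itgav* and *Itgb1* did not. The match by CPM was not particular to endothelium, since the sums of the pericyte and adipocyte markers, the laminin chains and the other integrin ligands had the same lowest and highest pairs. The fibroblast sum shared the lowest pair but was highest in *Glis2+/+* replicates 1 and 3. By CPM, that pair was highest in none of the 10 integrins, but by TPM it was highest in *Itga5*, *Itgb1* and *Itgb6*. Of the 6 that matched the endothelial sum by CPM, *Itga1* and *Itga5* had the widest ranges. *Itgb6* differed from these, and by CPM its single highest and lowest libraries were those of the luminal markers. The luminal sum over 9 genes was 3765, 6164 and 5170 in *Glis2+/+* and 5488, 6452 and 3660 in *Glis2-/-* libraries. *Itgb6* and this sum were both highest in *Glis2-/-* replicate 2 and lowest in *Glis2-/-* replicate 3. This looser match of 1 library at each end held for 4.03% of all genes tested, and by pairs of libraries *Itgb6* and the luminal sum did not match. By TPM, *Itgb6* was again lowest in *Glis2-/-* replicate 3, at 0.651, but highest in *Glis2+/+* replicate 1, at 1.52. The part of these cell types in the integrin values was not tested. In such bulk libraries, fewer cells of a type and less RNA per cell cannot be told apart.

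**Figure D4:**
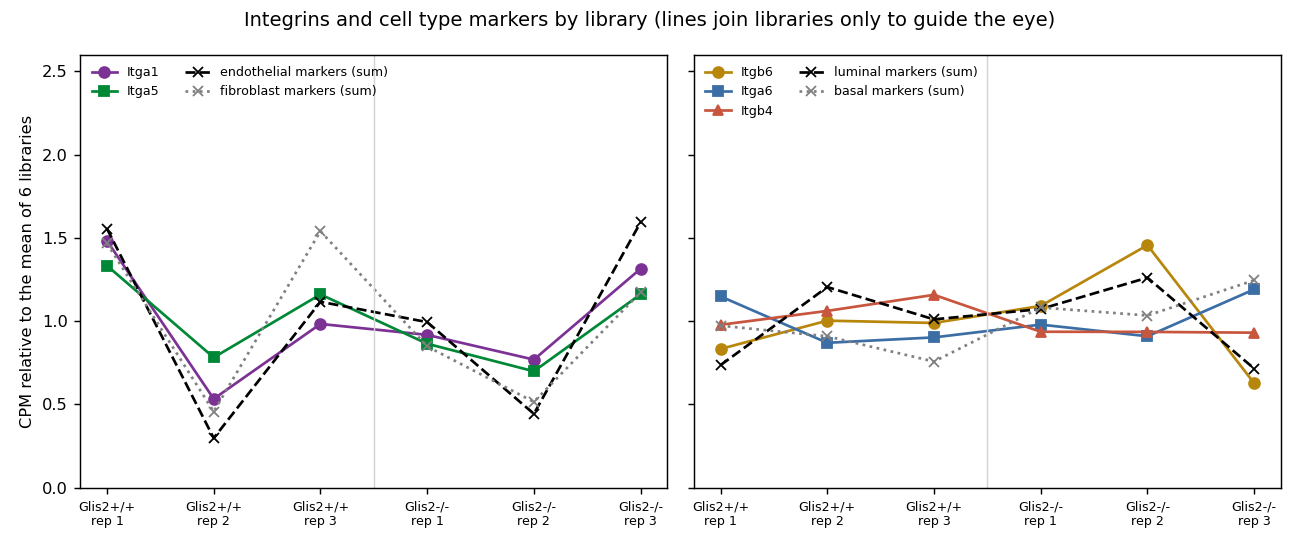
CPM of selected integrins and summed CPM of cell type markers in each library, relative to the mean of 6 libraries (vertical axis), with *Glis2+/+* libraries left and *Glis2-/-* libraries right of the grey line. On the left, *Itga1* and *Itga5* dip in the second replicate of each genotype with the endothelial and fibroblast sums, and on the right *Itgb6* and the luminal sum are both highest in *Glis2-/-* replicate 2 and lowest in *Glis2-/-* replicate 3.

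The summed basal markers separated the genotypes by CPM but not by TPM. The sum over 8 genes was 5277, 4931 and 4108 CPM in *Glis2+/+* and 5869, 5608 and 6755 in *Glis2-/-* libraries, without overlap, whereas by TPM it was 446, 491 and 409 against 559.8, 447 and 551, with overlap. Of the single markers, 2 of 8 did not overlap, beside 11.7% of all genes. By CPM, 8 of 8 were higher in *Glis2-/-* cells, beside 51.6% of all genes, with a median log2 fold change of 0.42. By mean TPM, *Krt5* was lower there, at 38.6 against 39.6, while *Krt14*, *Krt17*, *Trp63*, *Acta2*, *Myh11*, *Oxtr* and *Cnn1* were higher. For *Oxtr* the groups did not overlap by TPM. Of the 8, edgeR and DESeq2 called 0. An unadjusted p under 0.05 in edgeR was obtained for 5 of them, all in the higher direction, beside 2.99% of all genes in that direction. *Itgb4*, whose product sits in the hemidesmosomes of basal cells, lay lower in the same libraries in which this sum of CPM was higher. The summed CPM of all 10 integrins was 1893 to 2393 in *Glis2+/+* and 1958 to 2449.7 in *Glis2-/-* libraries, with overlap. Whether the larger basal sum by CPM bears on the integrin values was not tested.

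Between pairs of the 10 genes, log2 CPM over the 6 libraries was most alike for *Itga5* and *Itgb1*, with a Pearson's r of 0.982. It was least alike for *Itgb1* and *Itgb6*, with an r of -0.788. These values describe 6 libraries that share their depth, scaling and mix of cells across both genes of a pair, and they carry no test. *Itga6* was closer to *Itga2* (r = 0.898) than to its partners *Itgb1* (r = 0.776) and *Itgb4* (r = -0.531).

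The other integrin subunits give the setting in which these 10 stand. Of 16 listed, 14 passed the filter on low counts and *Itgad* and *Itgax* did not, 8 were higher and 6 lower in *Glis2-/-* cells by CPM, and edgeR and DESeq2 called 0 of them. *Itgb5*, a further partner of the *Itgav* product, had the highest mean TPM of them, 10.2, with 93.8 to 122 CPM, and its log2 fold change was 0.08 (SE 0.12). By TPM its direction was the opposite, with 11.1, 10.7 and 10.7 in *Glis2+/+* against 10.4, 9.23 and 9.01 in *Glis2-/-* libraries, without overlap. By CPM, the log2 fold change was 0.11 for *Itga8*, 0.27 for *Itgam* and 0.15 for *Itgb3*, whose mean TPM was nearly equal at 2.295 and 2.292. It was -0.33 for *Itga4*, -0.40 for *Itga7*, -0.81 for *Itga10*, -0.13 for *Itga11*, -0.08 for *Itga2b* and -0.09 for *Itgae*, and the edgeR adjusted p of these genes lay between 0.941 and 0.998. *Itgal* and *Itgb2*, whose products form a leukocyte integrin, had an unadjusted p under 0.05, a result that 2.99% of all genes had in the higher direction. *Itgal* had 2.69, 1.05 and 0.768 CPM in *Glis2+/+* and 2.80, 4.17 and 8.44 in *Glis2-/-* libraries, with a log2 fold change of 1.77 (SE 0.59, edgeR adjusted p = 0.906). *Itgb2* had 1.65, 2.17 and 0.806 against 2.44, 3.77 and 8.69, with a log2 fold change of 1.68 (SE 0.57, edgeR adjusted p = 0.906). Both were highest in *Glis2-/-* replicate 3, where the summed immune markers were at 70.3 CPM against 17.9 to 35.1 in the other libraries. Without that library their log2 fold changes were 1.195 and 0.99, with unadjusted edgeR p-values of 0.0876 and 0.108. *Ptprc*, which encodes the CD45 that was stained for in the sort, was at 7.98 to 38.7 CPM. The part of immune cells in these values was not tested.

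Genes that act on or with integrins were counted in 5 lists, and edgeR and DESeq2 called 0 genes in each. Of 10 genes for integrin activation, which regulate how strongly the receptor holds its ligand, 6 were higher and 4 lower in *Glis2-/-* cells by CPM, and 2 of 10 had an unadjusted p under 0.05, beside 5.32% of all genes. These were the kindlin gene *Fermt1*, with a log2 fold change of 0.32 (SE 0.13) by CPM but a lower mean TPM in *Glis2-/-* cells (2.06 against 3.05), and the talin gene *Tln2*, with -0.28 (SE 0.10). The talin gene *Tln1* had the highest CPM of the list, with 472 to 633 CPM and a log2 fold change of 0.13 (SE 0.11), but a lower mean TPM in *Glis2-/-* cells (43.04 against 44.7). Of 19 focal adhesion genes, which connect bound integrins to actin, 12 were higher and 7 lower by CPM, and 0 had an unadjusted p under 0.05. *Actn4*, encoding an alpha-actinin, had their highest CPM, 824 to 928 CPM with a log2 fold change of 0.09 (SE 0.08), but a lower mean TPM in *Glis2-/-* cells (71.3 against 80.1).

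Of 7 genes for hemidesmosome and tetraspanin partners of the laminin receptors, 5 were higher and 2 lower by CPM, and *Dst*, whose epithelial product links the *Itgb4* tail to keratin, had an unadjusted p under 0.05. Its CPM was 2729, 2499.5 and 2914 in *Glis2+/+* and 3187, 3171 and 3112 in *Glis2-/-* libraries, without overlap as in 11.7% of all genes, with a log2 fold change of 0.22 (SE 0.08, edgeR adjusted p = 0.906). By TPM the groups of *Dst* overlapped, with 58.7, 60.05 and 68.8 against 70.8, 63.8 and 63.7. *Plec*, which encodes the linker plectin of the same junction, had a log2 fold change of -0.04. Among ligands, 6 of 11 laminin chain genes were higher and 5 lower by CPM. *Lamc3* had a log2 fold change of 1.39 (SE 0.52, edgeR adjusted p = 0.906), and *Lamc1* had the highest CPM of the chains, 622 to 1112. Of 11 genes for other ligands, 4 were higher and 7 lower by CPM, and *Npnt*, encoding the basement membrane ligand nephronectin, had a log2 fold change of -0.41 (SE 0.15, edgeR adjusted p = 0.906). *Col4a1*, with the highest CPM of that list, ranged from 1503 to 3938 CPM with a log2 fold change of 0.19 (SE 0.31).

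Promoter sequence was examined because the mice lack a zinc-finger factor and because the study concerns EMT factors that bind E-boxes. RefSeq windows of GRCm38.p6, each from 250 bases before to 50 after an annotated start, were at hand for 8 of the 10 genes (10 windows), and not for *Itga6* and *Itgb4*. The letters CACCTG, on either strand, were in 3 of these 10 windows and in 20.2% of 32851 windows of the same length. They are shown in capitals with 10 bases on either side, 5′ to 3′ on the strand of the gene, because they place the motif relative to a RefSeq start in each of the 3 genes.
*Itgb6*, chr2:60673738-60673763, minus strand: gggcactgtaCACCTGacttccttat
*Itga3*, chr11:95076894-95076919, minus strand: gggttcccgaCAGGTGtctgagagag
*Itgb8*, chr12:119238323-119238348, minus strand: cctccctgccCACCTGtggaagaagc
These starts are not the 5′ end of the annotated gene: they lie 48950 bases inside it for *Itgb6*, 526 for *Itgb8* and 87 for *Itga3*. The motif lies 60 bases before the start in the *Itgb6* window and 62 before it in that of *Itgb8*, and 195 before it in that of *Itga3*, where it is read on the opposite strand and so appears as CAGGTG. The letters TGGGGGGT and TGGGTGGTC, searched on both strands for GLIS and GLI factors, were in 0 of the 10 windows, and in 1.53% and 0.253% of all windows. These are matches of letters in short windows, and binding at them was not measured here. Of the genes whose windows hold CACCTG, 0 of 3 passed the test between the genotypes.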

How the data were processed

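The authors estimated counts per gene with Salmon 1.2.1 on an mm10 transcriptome with the genome as decoy and assembled them with tximport. They deposited estimated counts, which are whole numbers that were not scaled, and TPM on a log2 scale with 1 added. Salmon divides reads between transcripts by estimate, so overlapping genes share uncertainty. The 10 integrins and all lists were chosen with earlier results of these data known.

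Of 54418 identifiers, 54166 matched a GRCm38 annotation. In R 4.3.3, edgeR 4.0.16 was used to filter the counts (filterByExpr), scale them (TMM) and run its quasi-likelihood test over 21236 genes, without a replicate block. P-values were adjusted by the Benjamini-Hochberg method over all genes tested, and unadjusted p-values of single genes come from the same fit. The fit assumes that the 3 mice of a genotype are independent. Subunit ratios of TPM were compared by exact permutation tests over libraries. Intervals are 95% intervals of the edgeR fit. Alternatives were DESeq2 1.42.0 with apeglm 1.24.0 (the test of the study's methods, there in an earlier version), DESeq2 size factors in edgeR, no filter, at least 10 counts in every library, limma 3.58.1 on log2(TPM + 1), log2(TPM + 0.1) and TPM without *Gm23935*, a replicate block and leaving out each library. The scripts were tested on simulated data. Genes named are all integrins, *Glis2*, marker genes where an integrin value turns on them, and, of the 5 lists, the gene of highest mean CPM and those called or with an unadjusted p under 0.05. *Plec* was added after its value was seen. A result that this rule would name is not reported here. Total counts per library were 24996524 to 31393917. Intervals and SDs describe the spread between libraries, and counting error was not separated from it.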

Additional observations from a re-analysis of the deposited data

How the results depend on the processing

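The count of integrins past the thresholds was 0 under each of 14 alternatives, while the count of all genes was 45 with DESeq2 and apeglm, 40 without a filter, 1 with log2(TPM + 0.1) and 1 with TPM without *Gm23935*, and 0 in the others. *Itga5* and *Itgb4* kept their direction in all 14 alternatives. The log2 fold change of *Itga1* turned to -0.0059 with DESeq2 size factors, -0.0038 with DESeq2, -0.0036 without a filter and -0.015 with at least 10 counts in every library. With log2(TPM + 1), *Itga1* turned to -0.19, *Itga2* to -0.00035, *Itga3* to -0.12, *Itga6* to -0.12, *Itgav* to -0.29 and *Itgb6* to -0.25. With log2(TPM + 0.1), these were -0.26, -0.0018, -0.12, -0.12, -0.31 and -0.44. With TPM without *Gm23935*, *Itga1* turned to -0.16, *Itga3* to -0.022, *Itga6* to -0.021, *Itgav* to -0.21, *Itgb6* to -0.33 and *Itgb8* to 0.0064. With log2(TPM + 1), the integrins' median minus that of all genes was -0.147, with 2 of 10 above the median of all genes. The median of all genes moved from 0.01 to -0.14 with log2(TPM + 0.1), and the integrins' median minus that of all genes was then -0.107, with 4 of 10 above the median of all genes. The cause was not tested.

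Leaving out 1 library gave log2 fold changes of -0.30 to 0.38 for *Itga1*, 0.0070 to 0.23 for *Itga2*, 0.031 to 0.20 for *Itga3*, -0.50 to -0.11 for *Itga5*, 0.024 to 0.23 for *Itgav*, -0.060 to 0.20 for *Itga6*, -0.16 to 0.011 for *Itgb1*, -0.14 to 0.42 for *Itgb6*, -0.17 to 0.10 for *Itgb8* and -0.27 to -0.13 for *Itgb4*, whose value without *Glis2+/+* replicate 1 was -0.27 (unadjusted p = 0.0288, edgeR adjusted p = 0.774). The ratio of *Itgb6* to *Itgb8* turned to 0.14 by CPM. That of *Itga3* to *Itga6* turned to 0.070 by CPM and 0.0016 with 1 TPM added to each side, and lay between -0.092 and 0.12 with 1 library left out. That of *Itga2* to *Itga1* then lay between -0.011 and 0.57, that of *Itga6* to *Itgb4* between 0.06 and 0.44, that of *Itgb6* to *Itgb8* between -0.65 and -0.04 and that of the summed alpha subunits to *Itgb1* between 0.0060 and 0.11.

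The deviations of same-numbered libraries from their group means correlated across genes with r of -0.02, 0.17 and 0.02. For libraries of different number, r lay between -0.19 and 0.19. With 3 mice a genotype, these values cannot decide whether the replicate numbers paired the mice. With the replicate block, edgeR called 0 genes and 0 integrins. With 3 mice a genotype, the 95% intervals of *Itga1*, *Itga5* and *Itgb6* reached past 0.58.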

Other observations

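The integrins differed in how stably their CPM and TPM went together. CPM divided by TPM, set relative to the median gene of the library, is a measure of the transcript length that the quantification assumed for a gene, and in the median of 14610 genes its highest value over the 6 libraries was 1.22 times its lowest. For *Itgb1* this range was 1.02 times and for *Itga6* 1.09 times. For *Itgav* the values were 2.42, 2.06 and 1.67 in *Glis2+/+* and 2.76, 2.33 and 2.26 in *Glis2-/-* libraries, a range of 1.66 times that 18.3% of genes reached. For *Itgb6* they were 0.961, 1.66 and 1.41 against 1.71, 1.90 and 1.55, a range of 1.98 times that 10.1% of genes reached. In both genes the groups overlapped. They did not overlap for *Itga1*, with 3.28, 3.49 and 3.807 in *Glis2+/+* and 4.16, 3.89 and 3.811 in *Glis2-/-* libraries, nor for *Itga2*, with 3.68, 3.67 and 3.67 against 3.65, 3.18 and 3.65. Of all genes, 3.44% had *Glis2-/-* above and 17.1% had it below *Glis2+/+* without overlap. *Itgav* and *Itgb6* are the genes whose log2 fold change differed most between CPM and log2(TPM + 1), and which transcripts the reads were assigned to was not analysed here.

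*Itga9*, whose product binds tenascin and other ligands, had the smallest unadjusted p of the other integrins outside the leukocyte subunits, with 46.8, 32.9 and 50.8 CPM in *Glis2+/+* and 64.8, 47.4 and 64.4 in *Glis2-/-* libraries. Its groups overlapped, and its log2 fold change was 0.44 (SE 0.19, edgeR adjusted p = 0.906). *Itgb7*, which encodes a lymphocyte subunit, had a log2 fold change of 1.07 (SE 0.50, edgeR adjusted p = 0.906), and 0.67 without *Glis2-/-* replicate 3, but by TPM its direction was the opposite, with means of 0.362 in *Glis2+/+* and 0.287 in *Glis2-/-* libraries.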
